A study of Mus musculus with 6 samples.

Results

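Adhesion G protein-coupled receptors are cell surface receptors that join a long extracellular region, built for contact with matrix and neighbouring cells, to a membrane-spanning part that activates G proteins. Many cut themselves at a conserved site just outside the membrane, and the stretch exposed there acts as a tethered agonist. In blood vessels several of them take part in angiogenesis, the endothelial barrier and vessel patterning. Described here are 9 genes of the family, Adgrb2, Adgrl1, Adgrl2, Adgrl4, Adgrf5, Adgrg1, Adgrg6, Adgra2 and Adgre5, out of 30 family genes listed and 54532 genes in the count table, whose gene descriptions name each of the 9 as an adhesion G protein-coupled receptor. They were chosen by name from the family with their control and RBPMS values in these same libraries already known, so their differences between the groups are given as a description, without a test.

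The libraries came from mouse endothelial cells in culture, exposed to lentivirus for 72 h, with an empty vector in 3 control libraries and with RBPMS in 3 overexpression libraries. RBPMS is an RNA-binding protein of muscle and other tissues that takes part in splicing and binds RNA through CAC triplets. Both groups carried lentivirus, and neither the vascular bed or strain of the cells nor the species of the RBPMS insert is given in the sources used here. Nothing states that the replicates were separate cultures, so errors cover the spread between these libraries, which may be technical.

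Total counts were 15779567 to 23076124 per library. The Rbpms gene was at 57.1, 56.8 and 55.2 CPM (counts scaled to a common library size with TMM factors) in control replicates 1 to 3 and at 131, 148 and 133 CPM in RBPMS replicates 1 to 3. All 11 endothelial markers were present, led by Vwf, and summed to 20206 to 20916 CPM in control replicates 1 and 2, 16575 CPM in control replicate 3 and 18016 to 18963 CPM with RBPMS. The sum with RBPMS was thus below the first pair of controls and above control replicate 3. Vwf had the same order, at 7745, 7824 and 3692 CPM in control replicates 1 to 3 and 5439 to 6051 CPM with RBPMS. Single markers went both ways: Pecam1, Cdh5 and Erg had every RBPMS library above every control, Esam had every one below, and the rest overlapped. The part of these differences in those of the receptors was not tested. Epcam, Cdh1 and Krt18 (epithelium), Rgs5 (pericytes), Cd3e (T cells) and Snap25 (neurons) had no count in any library. Control replicate 3 stood apart: across genes its log2 CPM values had Pearson correlations of 0.954 to 0.960 with the rest, which correlated among themselves at 0.991 to 0.995. Differences between the groups are therefore given with and without that library.

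RBPMS recognises CAC triplets that lie close together, so the receptors' transcripts were searched on the sense strand for neighbouring CACs separated by 1 to 12 bases. The following 30-base stretches hold the most such pairs found within a single coding exon of the 3 genes whose levels differed most between the groups without control replicate 3. They are GENCODE M21 sequence (GRCm38), 5′ to 3′, with CAC in capitals.
Adgrb2: gaacgtCACtgaCACcttcaagagggcCAC
Adgrl4: tcagaccgcCACggggaagtCACagttCAC
Adgre5: cCACaacaggCACtggCACcagccaaaCAC
The Adgrb2 stretch is in exon 9 of 28 (chr4:130009348-130009377, plus strand), the Adgrl4 stretch in exon 4 of 16 (chr3:151497921-151497950, plus strand) and the Adgre5 stretch in exon 19 of 20 (chr8:83723981-83724010, minus strand). The first pair of stretches hold 2 neighbouring pairs each and that of Adgre5 holds 3. Such pairs are common: 97.1% of 11744 tested genes with a protein-coding transcript had at least 1 in their longest one, with a median of 2.50 pairs per kb. Adgre5 had 7.67 pairs per kb, above 99.1% of those genes. Its CACs as a whole were dense too, at 24.0 per kb (above 96.2% of those genes, median 15.6). Adgrg1 had 5.25, Adgrf5 4.80, Adgrl4 4.63, Adgrb2 4.06, Adgrl1 4.03 and Adgra2 3.13 pairs per kb, all above the median. Adgrg6 (2.31) and Adgrl2 (1.82) lay below it. Whether RBPMS binds any of these stretches was not measured.

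Compared per length, as RPKM on the deposited gene length (CPM divided by the length in kilobases), the 9 receptors ran from 120 RPKM for Adgrf5 down to 0.010 RPKM for Adgrg6 in single control libraries. Adgrf5, a receptor of endothelium and lung epithelium that controls surfactant, was at 119, 120 and 50.5 RPKM in control replicates 1 to 3. Adgrg1, which binds collagen III and transglutaminase 2, followed at 75.4, 78.9 and 54.9 RPKM. These top receptors overlapped among controls through control replicate 3, whereas with RBPMS Adgrf5 lay at 129 to 132 RPKM and Adgrg1 at 79.5 to 82.0 RPKM.

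The latrophilin Adgrl2 (21.8, 42.7 and 44.0 RPKM as lowest, median and highest control) and Adgra2 (17.2, 39.1 and 41.4 RPKM) came next and overlapped each other. Adgrl4 had 17.7, 18.8 and 21.3 RPKM in controls and overlapped Adgra2 only through control replicate 3. The lower places did not overlap their neighbours in controls: Adgre5 at 4.87 to 5.68, Adgrl1 at 2.46 to 4.73, Adgrb2 at 0.58 to 1.15 and Adgrg6 at 0.010 to 0.025 RPKM. With RBPMS the order of the 9 means was the same and no neighbouring pair overlapped. The 9 genes made up 96.5% to 97.1% of the summed RPKM of the 30 listed family genes in each library. Adgrf5 alone took 34.4% ± 5.48 (SD, n = 3) of that sum in controls and 38.1% ± 0.26 (SD, n = 3) with RBPMS. Control replicate 3 lowers the control mean, as its share of 28.1% was the lowest of any library. In control replicates 1 and 2 Adgrf5 held 119 and 120 RPKM of sums of 314 and 325 RPKM.

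**Figure D1:**
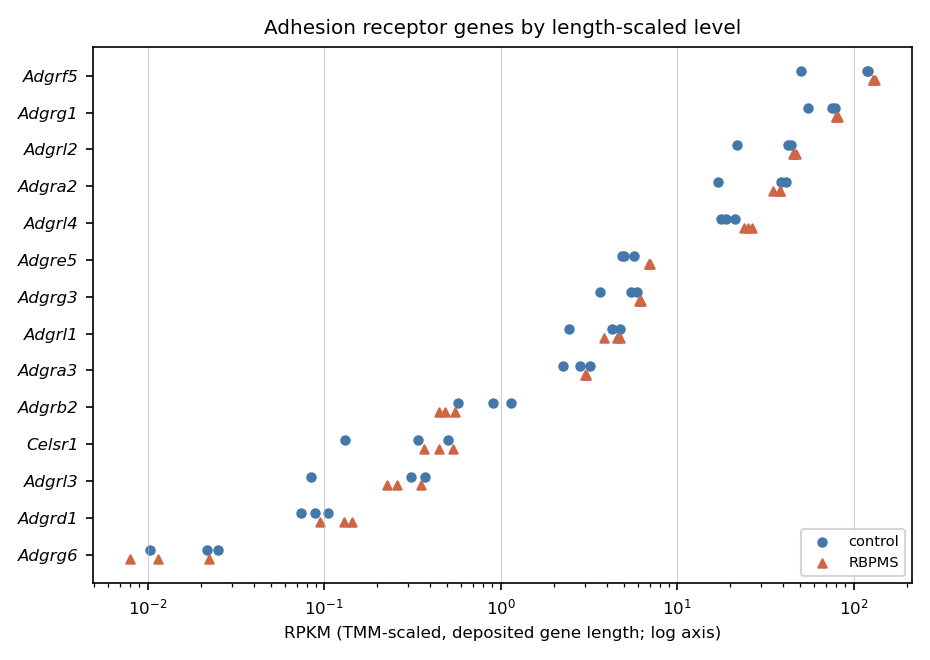
RPKM on a log axis for the 9 receptors and the other 5 adhesion receptors that passed the filter on low counts, with 1 point per library (circles control, triangles RBPMS). Adgrf5 had the highest mean in both groups, at 50.5 to 132 RPKM, and Adgrg6 was the lowest at 0.008 to 0.025 RPKM. In control replicate 3 Adgrg1 (54.9 RPKM) was above Adgrf5 (50.5 RPKM).

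Of the 9 genes, 8 passed the filter on low counts. In all 6 libraries 5 of the 8 had every RBPMS library above every control, against 12.2% of tested genes, and 1 had every RBPMS library below, against 12.5%. Because the genes were picked with this contrast known, nothing is read from those counts. The median log2 fold change of the 8 was 0.28 over 6 libraries and 0.08 without control replicate 3, beside -0.0083 and -0.0025 over all tested genes.

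**Figure D2:**
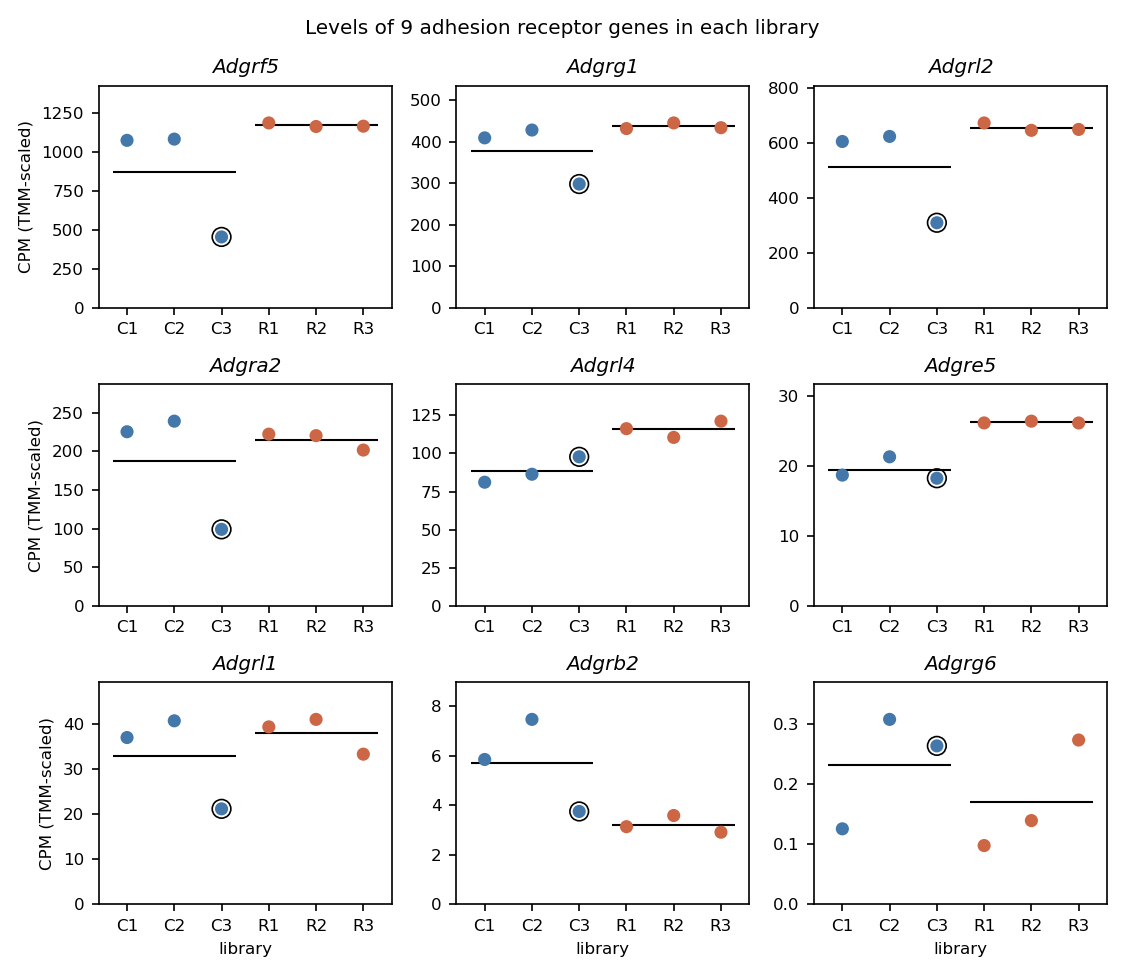
TMM-scaled CPM of each receptor gene in control (C1 to C3, blue) and RBPMS (R1 to R3, orange) libraries, with lines at group means and control replicate 3 ringed. Control replicate 3 is far below the other controls for Adgrf5, Adgrl2, Adgra2, Adgrl1 and Adgrb2. For Adgrl4 and Adgre5 it lies near the other controls, and the groups separate. The groups also separate for Adgrf5, Adgrl2 and Adgrg1, and for Adgrb2 with RBPMS lower.

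Adgrb2 was lower with RBPMS. It encodes brain-specific angiogenesis inhibitor 2, an orphan receptor with thrombospondin repeats in its extracellular region, and lies on chromosome 4 (ENSMUSG00000028782, 129984870 to 130022633, plus strand, GRCm38). Control replicates 1 to 3 held 93, 121 and 85 of its counts, and RBPMS replicates 1 to 3 held 64, 77 and 53. Scaled, these were 5.85, 7.47 and 3.74 CPM in controls and 3.13, 3.58 and 2.91 CPM with RBPMS. The groups did not overlap, but the lowest control, replicate 3, lay just above the highest RBPMS library.

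The log2 fold change of Adgrb2 was -1.05 ± 0.18 (SE) without control replicate 3 and -0.82 ± 0.27 over all 6 libraries. Without control replicate 3, leaving out 1 more library moved it between -1.21 (without control replicate 1) and -0.86 (without control replicate 2). No other gene of the deposited table overlaps its locus. Its relative Adgrb1 had 2 counts in all, both in RBPMS replicate 3, and Adgrb3 had 1.

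Adgrl4 was higher with RBPMS. This receptor, also known as ELTD1, is enriched in endothelium and promotes vessel sprouting (ENSMUSG00000039167, chromosome 3, 151437887 to 151545086, plus strand). Its levels were 81.1, 86.3 and 97.8 CPM in control replicates 1 to 3 and 116, 110 and 121 CPM in RBPMS replicates 1 to 3. The groups did not overlap, and control replicate 3 was the highest control. The log2 fold change was 0.47 ± 0.055 (SE) without control replicate 3 and 0.39 ± 0.11 with it. No gene overlaps its locus in the table.

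Adgre5 was also higher with RBPMS. It encodes CD97, a receptor for the complement regulator CD55 that is best known from leukocytes (ENSMUSG00000002885, chromosome 8, 83723251 to 83741326, minus strand). Levels were 18.7, 21.4 and 18.3 CPM in control replicates 1 to 3, and 26.2, 26.5 and 26.2 CPM in RBPMS replicates 1 to 3. The RBPMS libraries were almost equal and all above the controls. The log2 fold change was 0.39 ± 0.087 (SE) without control replicate 3 and 0.43 ± 0.11 over all 6.

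Adgre5 shares 895 exon bases with Ddx39, an RNA helicase gene on the opposite strand, and its level is uncertain because the sources used here do not say how the counting used strand. Ddx39 was lower with RBPMS, averaging 49.8 CPM over control replicates 1 and 2, with 70.0 CPM in control replicate 3 and 42.7 CPM with RBPMS. Of the leukocyte markers, Cd68, a lysosomal protein gene, differed in the same direction as Adgre5, at 41.4 to 46.5 CPM in controls and 53.3 to 58.3 CPM with RBPMS. Ptprc and Itgam were each at 0.164 CPM or less in every library, and Cd3e was at 0. The part of either in the Adgre5 difference was not tested.

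By mean RPKM in each group, Adgrf5 was the most abundant of the 9 (ENSMUSG00000056492, chromosome 17, 43360451 to 43459557, plus strand). It was at 1076 and 1084 CPM in control replicates 1 and 2, at 455 CPM in control replicate 3, and at 1188, 1165 and 1167 CPM with RBPMS. The first pair of controls sat just under the RBPMS libraries and control replicate 3 far below. The log2 fold change was 0.12 ± 0.045 (SE) without control replicate 3 and 0.43 ± 0.32 with it, a smaller error and a smaller value without that library.

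Adgrl2 showed the same arrangement. Latrophilins such as Adgrl2 and Adgrl1 bind teneurins and FLRT proteins on neighbouring cells. Adgrl2 (ENSMUSG00000028184, chromosome 3, 148815583 to 148990555, minus strand) was at 606, 624 and 309 CPM in control replicates 1 to 3 and at 673, 646 and 650 CPM with RBPMS. Its log2 fold change was 0.10 ± 0.045 (SE) without control replicate 3 and 0.36 ± 0.26 with it.

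Adgrl1 did not separate the groups (ENSMUSG00000013033, chromosome 8, 83900105 to 83941954, plus strand). It had 36.9, 40.6 and 21.1 CPM in control replicates 1 to 3 and 39.3, 40.9 and 33.2 CPM with RBPMS. The log2 fold change was -0.03 ± 0.087 (SE) without control replicate 3 and 0.20 ± 0.24 with it, so the sign turned with that library. The locus of Adgrl1 lies 158778 bases from Adgre5 and is transcribed away from it. The opposite-strand genes that share the most exon bases with Adgrl1 (Gm10644, 1107 bases) and Adgrl2 (Gm43573, 202 bases) had 6 and 83 counts in all.

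Adgra2, a coreceptor with RECK for Wnt7a and Wnt7b signals in brain vessels, overlapped between the groups as well (ENSMUSG00000031486, chromosome 8, 27085583 to 27123436, plus strand). Its levels were 226, 239 and 99.1 CPM in control replicates 1 to 3 and 222, 221 and 202 CPM with RBPMS. Without control replicate 3 all RBPMS libraries were below both controls, with a log2 fold change of -0.11 ± 0.051 (SE). With it the fold change was 0.19 ± 0.31. Adgra2 shares 73 exon bases with Brf2 on the opposite strand, a gene with 1772 counts in all against 22688 for Adgra2.

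Adgrg1 (ENSMUSG00000031785, chromosome 8, 94974751 to 95014217, plus strand) was at 409, 428 and 298 CPM in control replicates 1 to 3 and at 431, 445 and 433 CPM with RBPMS. All RBPMS libraries were above all controls, but the nearest libraries of the groups, control replicate 2 and RBPMS replicate 1, were close. The log2 fold change was 0.06 ± 0.045 (SE) without control replicate 3 and 0.21 ± 0.16 with it. Adgrg1 sits between its relatives Adgrg5, 31470 bases before it, and Adgrg3, 3474 bases after it, all on the plus strand. Adgrg3 was at 38.0, 41.1 and 25.1 CPM in control replicates 1 to 3 and at 42.0, 43.3 and 42.9 CPM with RBPMS, and Adgrg5 had 13 counts in all.

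Adgrg6, which drives myelination by Schwann cells, was barely detected (ENSMUSG00000039116, chromosome 10, 14402583 to 14545659, minus strand). Control replicates 1 to 3 held 2, 5 and 6 of its counts, and RBPMS replicates 1 to 3 held 2, 3 and 5. At this depth no difference could be read, and the gene failed the filter on low counts in both fits.

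**Figure D3:**
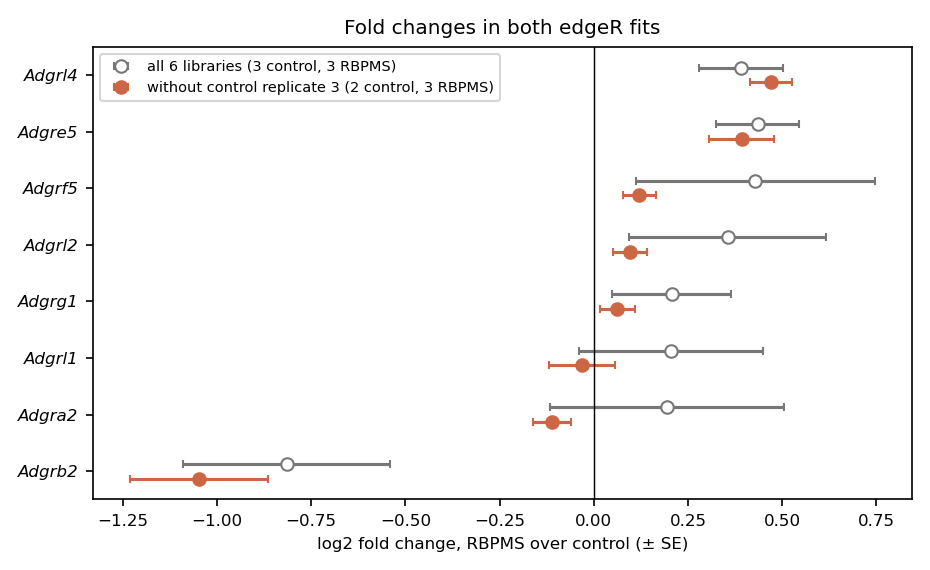
Log2 fold change (RBPMS over control) ± SE of the 8 receptors that passed the filter, from the edgeR fit over all 6 libraries (open circles) and without control replicate 3 (filled circles). Adgrb2 is below 0 and Adgrl4, Adgre5, Adgrf5, Adgrl2 and Adgrg1 are above 0 in both, while Adgrl1 and Adgra2 change sign.

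Control replicate 3 differed from the other controls along gene length. Its median log2 difference from them was 0.59 in the shortest length quintile of tested genes and -0.54 in the longest, whose lengths start at 7049 bases. The 3 tested receptors of the longest quintile differed by more than its median, with -1.25 for Adgrf5 (9010 bases), -0.99 for Adgrl2 (14198 bases) and -0.87 for Adgrl1 (8587 bases). In the next quintile, whose median was -0.21, Adgra2 differed by -1.23, Adgrb2 by -0.81 and Adgrg1 by -0.49. The shorter Adgrl4 (4585 bases) and Adgre5 (3757 bases) differed by 0.22 and -0.13, beside a median of 0.03. With a length trend fitted in each library, the 6-library log2 fold changes were 0.32 for Adgrf5, 0.14 for Adgrl2, 0.08 for Adgrl1 and -0.90 for Adgrb2.

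**Figure D4:**
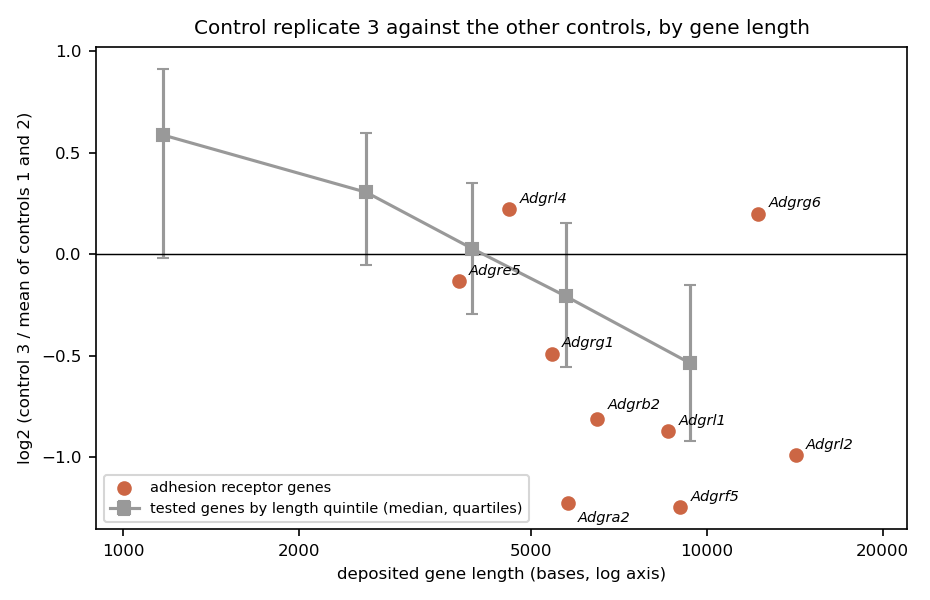
Log2 ratio of control replicate 3 to the mean of control replicates 1 and 2 against deposited gene length (log axis), for the 9 receptors (orange) and as medians with quartiles for length quintiles of the tested genes (grey). The medians fall from 0.59 to -0.54 with length, and 6 of the 9 receptors lie between -0.49 and -1.25.

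Of the other 21 adhesion receptors on the list, 17 had any count, 5 passed the filter and 0 were called at an edgeR quasi-likelihood adjusted p under 0.05 in either fit. Over all 6 libraries 0 of 13898 genes were called (0%), with 1050 at an unadjusted p under 0.05 and 56 called by DESeq2. Without control replicate 3, edgeR called 3.81% of 14123 genes higher and 3.43% lower. Adgrg3 was the most abundant of these (5.03 RPKM in controls), with a log2 fold change of 0.11 ± 0.072 (SE) without control replicate 3 and 0.30 with it. Adgra3 (2.77 RPKM in controls) had 0.00 ± 0.085 and 0.13. The median over the 5 was 0.11 without control replicate 3 and 0.30 with it.

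Among 30 genes for ligands and binding partners, 12 could be tested without control replicate 3, where 2 rose (beside 3.81% of all genes) and 1 fell (beside 3.43%), and 11 over all 6 libraries, where 0 were called by edgeR. C1ql4, a secreted C1q-like protein that binds Adgrb3, fell from 26.2, 34.4 and 34.8 CPM in control replicates 1 to 3 to 16.4, 16.2 and 16.6 CPM with RBPMS, with no overlap. Its log2 fold change was -0.88 ± 0.10 (SE; edgeR quasi-likelihood adjusted p = 1.5e-05) without control replicate 3 and -0.96 over all 6 libraries (edgeR adjusted p = 0.353). The DESeq2 Wald test did call C1ql4 over all 6 libraries (-0.96, adjusted p = 5.3e-05). Without control replicate 3, leaving out 1 more library moved its fold change between -1.07 (without control replicate 1) and -0.67 (without control replicate 2). Of the Adgrb receptors, Adgrb2 was the only one above 2 counts, as given above.

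Tgm2, the crosslinking enzyme transglutaminase 2 that binds Adgrg1, rose from 458 to 545 CPM (log2 fold change 0.25 ± 0.062, edgeR adjusted p = 0.015), with 299 CPM in control replicate 3. It shares 370 exon bases with Rprd1b on the other strand and is uncertain where reads could be split. The FLRT protein gene Flrt2, a latrophilin ligand, rose from 386 to 431 CPM (0.16 ± 0.046, edgeR adjusted p = 0.034), with 235 CPM in control replicate 3. The call for Flrt2 was lost with either remaining control, or with RBPMS replicate 1 or 2, left out as well (edgeR adjusted p = 0.134, 0.148, 0.163 and 0.053), and that for Tgm2 without control replicate 1 or RBPMS replicate 1 (0.282 and 0.075). With all 6 libraries the fit gave 0.43 for Tgm2 and 0.36 for Flrt2, each with an edgeR adjusted p of 0.587. DESeq2 did not call Tgm2 without control replicate 3 (adjusted p = 0.177). Cd55, the partner of Adgre5, had a log2 fold change of 0.02 ± 0.067 without control replicate 3 and -0.01 with it. Reck, the partner of Adgra2, had 0.08 ± 0.085 and 0.22. The median over the 12 was 0.07, and over the 11 with all 6 libraries 0.12. The first median includes Nrxn2 (log2 fold change 1.15 ± 0.55), which was tested only without control replicate 3. It held 6 and 4 counts in control replicates 1 and 2 and 21, 11 and 10 with RBPMS. Nrxn2 thus passed the filter through its RBPMS libraries, and nothing is read from its value.

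Of 31 G proteins and intracellular transducers 28 were tested in each fit, and over all 6 libraries 0 were called. Without control replicate 3, 1 rose and 0 fell, a share close to the 3.81% of all genes called higher. The gene that rose was Elmo1, whose product joins Dock1 in the engulfment and Rac activation downstream of Adgrb1. It rose to a mean of 57.7 CPM from 46.5 CPM in the first pair of controls (log2 fold change 0.31 ± 0.065, edgeR adjusted p = 0.0044), with 24.5 CPM in control replicate 3. The call was lost without control replicate 2 as well (0.28, edgeR adjusted p = 0.055), and with all 6 libraries the fit gave 0.56 (edgeR adjusted p = 0.587). The G12 family genes Gna12 and Gna13, which link several adhesion receptors to RhoA, had log2 fold changes of 0.07 ± 0.048 and -0.07 ± 0.055 without control replicate 3 and 0.03 and 0.07 with it, and were not called in either fit, so the sign of Gna13 turned. The median over the 28 was 0.02 without control replicate 3 and 0.14 with it.

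By Pearson correlation of log2 CPM over the 6 libraries, the genes most like Adgrb2 among 11727 compared were Fam107a (r = 0.987), P3h3 (r = 0.981) and Slc22a5 (r = 0.977). Fam107a was at 80.2, 85.4 and 73.9 CPM in control replicates 1 to 3 and at 69.1, 70.4 and 66.3 CPM with RBPMS, a much smaller range than that of Adgrb2. Those most like Adgrl4 were Plet1 (r = 0.995), Gm47863 (r = 0.994) and Cabp1 (r = 0.978). All 6 points of each correlation come from the same libraries and share their depth and the length trend of control replicate 3, so the values only describe likeness.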

How the data were processed

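The authors deposited 1 table of raw gene counts, all whole numbers, for the 6 libraries, whose columns were matched to samples by name. FastQC, Salmon and mm10 are listed in the submitters' processing notes. Their versions, how gene counts were made and whether strand was used: not given in the sources used here. Per the labels' protocols, total RNA was depleted of ribosomal RNA before library construction.

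Counts were analysed in R 4.3.3 with edgeR 4.0.16 (filterByExpr by group, TMM, quasi-likelihood test of group, Benjamini-Hochberg adjusted p under 0.05 over all genes tested). Fits were made on all 6 libraries and on 5, leaving out control replicate 3. The SE is the size of the fold change over the square root of F. CPM and RPKM use TMM factors of the 6-library fit and the deposited gene length. The deposited gene length, in bases, came from the authors' table. Only the edgeR fits were tested on simulated data, which had a small, even spread and no outlying library or length trend. That check does not show how the 6-library fit performs with control replicate 3. The alternatives, including DESeq2 1.42.0, are in the closing section. The 9 loci have identical coordinates in GENCODE M21, which gave exons and transcripts.

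The receptors and gene lists were chosen with earlier results of these data known. Named genes were all 9 receptors, Rbpms, called members of the 3 lists or their most abundant ones, and the 3 genes most like Adgrb2 and Adgrl4 at a mean log2 CPM of at least 1. Cd55, Reck, Nrxn2, Gna12, Gna13, Ddx39 and Brf2 were named outside that rule after their values were seen. A further leukocyte marker is not reported here.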

Additional observations from a re-analysis of the deposited data

How the results depend on the processing

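The direction of Adgrb2 (lower), Adgrl4 and Adgre5 (higher) was the same in both fits and under every alternative run: no filter, at least 1 CPM in 3 libraries, replicate block, total library size in place of TMM, size factors of DESeq2, its Wald test, a length trend, and each library left out. Adgrf5, Adgrg1 and Adgrl2 likewise stayed above 0 throughout, with smaller values without control replicate 3 (0.12, 0.06 and 0.10). The genes were chosen with this contrast known, so these directions describe these libraries only. Without control replicate 3 the log2 fold change of Adgre5 ran from 0.30 to 0.49. Adgra2 and Adgrl1 changed sign between the fits (-0.11 and -0.03 against 0.19 and 0.20), and Adgrl1 ranged from -0.10 to 0.05 over the alternatives without control replicate 3.

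Over all 6 libraries, where edgeR called 0 genes, 5 were called without a filter, 56 with DESeq2, 3 with a length trend and 0 to 1022 with 1 library left out, the highest without control replicate 3. Of ligands and partners DESeq2 called 1 (C1ql4), and 0 to 3 were called with 1 library left out. Of transducers it was 0 to 1. Without control replicate 3, leaving out 1 more library gave 415 genes (without control replicate 1) to 1017 (without RBPMS replicate 3), against 1022. The counts were 1 to 4 for ligands and partners and 0 to 1 for transducers. Where 1 control was left, it was assumed to vary like the other libraries.

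With the replicate number as a block, 0 genes were called over 6 libraries and 917 without control replicate 3. Deviations of same-numbered libraries from their group means correlated at 0.050, -0.025 and 0.013. The control means include control replicate 3, so these values cannot decide whether the numbers pair the libraries. The main fits used no pairing. Adgrb2 rests on 53 to 121 counts a library and Adgrg6 on 2 to 6, which limits both.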
